A study of Mus musculus with 4 samples.

Results

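Open chromatin in mouse dermal fibroblasts was examined around 9 genes of growth factor signalling: 5 fibroblast growth factor (FGF) genes (Fgf1, Fgf2, Fgf7, Fgf10 and Fgf18), 3 FGF receptor genes (Fgfr1, Fgfr2 and Fgfr3), and Hgf. A peak belonged to a gene when its midpoint lay inside the gene's mm10 span or within 100000 bp of it, whatever its strength. Of all peaks in the authors' lists, this took 609 of 585165 in the Sod2 knockout, 465 of 433013 in its control, 362 of 347438 in rotenone and 381 of 340240 in vehicle.

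The lists came from ATAC-seq, in which Tn5 transposase cuts accessible DNA, on dermal fibroblasts labelled as C57BL/6 and 100 days. A conditional Sod2 knockout (Sod2-/-), which lacks the mitochondrial manganese superoxide dismutase, was set against a Sod2+/+ control. Rotenone, which blocks complex I of the mitochondrial respiratory chain, was given to Sod2+/+ cells at a labelled 250 µM, and the partner of that library was Sod2+/+ cells given vehicle. Each group had 1 library, and the labels name neither the Cre line behind the knockout nor the number of animals, so no difference below has a replicate check and no p-value is given. The series is titled for JunB in dermal fibroblasts and for aging of the skin, and the comparisons ask how accessibility differs when mitochondria are disturbed.

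FGFs are secreted proteins that bind receptor tyrosine kinases together with heparan sulfate. In skin, fibroblasts and dermal papilla cells release FGF7 and FGF10, which act on the epithelial splice form of the receptor encoded by Fgfr2, and HGF, which is not an FGF and binds the receptor MET. These factors are known for driving keratinocyte growth and the hair cycle, and FGF18 for its part in the resting follicle, while FGF2 acts on fibroblasts and endothelial cells largely through the receptor encoded by Fgfr1.

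Peaks are described by the authors' fold enrichment over local background, their width, and their rank in their own list by −log10 p, where rank 1 is the strongest. The 30000 highest ranked peaks of each list were called strong. The median fold of all strong peaks was 5.49 in the knockout, 6.78 in control, 5.99 in rotenone and 7.13 in vehicle, and the lists differ in length, so folds and ranks are given side by side and show no change by themselves. Strong peaks at the 9 genes had a median fold of 6.00 in the knockout, 7.40 in control, 5.95 in rotenone and 7.51 in vehicle. Their median width was 299 bp in the knockout, 434.5 bp in control, 284 bp in rotenone and 355 bp in vehicle, against 293, 376, 277 and 349 bp over all strong peaks of the same libraries. Read depth is unknown. As a check of the cell type, a strong peak within 1000 bp of a gene end was found at 3 of 12 fibroblast marker genes in the knockout, 5 in control, 3 in rotenone and 5 in vehicle. Over all coding genes the share was 36.7% in the knockout, 36.8% in control, 37.4% in rotenone and 36.7% in vehicle, and of the 8 keratinocyte markers 2, Krt10 and Krt14, had such a peak in each library. Gene end peaks therefore did not set fibroblast markers apart. Of the 5 endothelial markers Tek had one in every library. None of the 3 adipocyte and 4 pericyte markers had one in any library, and of the 5 myeloid markers Spi1 had one, in rotenone. The part of other cell types in the results was not tested.

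The starts of these genes differed in how strong a peak they carried. RefSeq gives start windows, from 250 bases before to 50 after a start, for 7 of the 9 genes (Fgf1 and Fgfr1 have none in the table used), with 2 starts each for Hgf and Fgfr3. Of these 7 genes, Hgf in the knockout was the single case of a strong peak over a start window, whereas over 27025 genes the share with one was 26.4% in the knockout, 26.8% in control, 26.7% in rotenone and 26.6% in vehicle. Among the 60000 strongest peaks of a list, one over the start was found at 2 of the 7 genes in each library: Fgf7 and Hgf in the knockout, Hgf and Fgf2 in control, Fgf7 and Fgf18 in rotenone, and Hgf and Fgf2 in vehicle. Over all genes this share was 33.8% in the knockout, 35.6% in control, 33.9% in rotenone and 35.3% in vehicle. A peak of any strength over the start was found at 5 of the 7 genes in the knockout, 5 in control, 4 in rotenone and 5 in vehicle, beside 47.8% of all genes in the knockout, 49.0% in control, 45.4% in rotenone and 47.8% in vehicle. Fgf7 and the second Hgf start carried a peak in every library, as did Fgf18. Their sequences are shown because they are the ligand gene starts with a peak in all 4 libraries. Each line gives the 250 bases before the start, 5′ to 3′ on the gene's strand, from RefSeq on GRCm38.p6, and capitals mark the bases inside the peak of all 4 libraries (190, 128 and 61 bases).
Fgf7, chr2:126034408-126034657, + strand: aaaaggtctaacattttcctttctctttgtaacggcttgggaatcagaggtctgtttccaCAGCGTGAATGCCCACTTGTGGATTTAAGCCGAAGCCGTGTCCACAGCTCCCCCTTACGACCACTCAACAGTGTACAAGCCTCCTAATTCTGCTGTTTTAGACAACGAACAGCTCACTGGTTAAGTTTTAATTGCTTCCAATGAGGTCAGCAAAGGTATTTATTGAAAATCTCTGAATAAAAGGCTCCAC
Hgf, second start, chr5:16553651-16553900, + strand: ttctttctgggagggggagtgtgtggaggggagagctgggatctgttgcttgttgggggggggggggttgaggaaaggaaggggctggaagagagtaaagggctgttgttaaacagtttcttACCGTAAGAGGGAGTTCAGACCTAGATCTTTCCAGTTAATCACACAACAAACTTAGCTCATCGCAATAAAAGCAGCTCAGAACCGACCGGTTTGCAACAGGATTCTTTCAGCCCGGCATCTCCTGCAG
Fgf18, chr11:33147401-33147650, - strand: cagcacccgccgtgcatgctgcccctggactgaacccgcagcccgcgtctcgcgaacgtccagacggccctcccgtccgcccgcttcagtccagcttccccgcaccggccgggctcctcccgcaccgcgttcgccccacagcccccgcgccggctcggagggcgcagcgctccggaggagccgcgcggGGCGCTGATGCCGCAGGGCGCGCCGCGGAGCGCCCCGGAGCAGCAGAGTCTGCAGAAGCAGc

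The peak over the Fgf7 start had a fold of 3.59 (rank 43815) in the knockout, 3.44 (rank 71629) in control, 3.54 (rank 59540) in rotenone and 3.34 (rank 90744) in vehicle. The peak at the second Hgf start had a fold of 4.29 (rank 28670) in the knockout, 3.88 (rank 55978) in control, 3.14 (rank 93881) in rotenone and 5.07 (rank 37001) in vehicle. It was strong in the knockout alone and lay lowest in the rotenone list. The Fgf18 start had its best rank in rotenone (52678, fold 3.68) and weaker peaks at rank 146798 in the knockout, 87609 in control and 119628 in vehicle. By base composition the windows differ widely, with 43.6% G and C before Fgf7, 51.2% before the second Hgf start and 77.2% before Fgf18, against a median of 52.4% over 32851 windows.

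The Fgf2 start had a peak in the knockout (fold 2.53, rank 151273), in control (fold 3.77, rank 56104) and in vehicle (fold 4.72, rank 41738), and in rotenone no peak overlapped the window. Its sequence is shown because it was the ligand gene start with a peak in every library except rotenone, and because it holds matches to 2 of the 5 motifs searched. Capitals mark the matches, which do not overlap: GCTGCGTCA, the antioxidant response core TGACNNNGC on the other strand, and GGGCGG, a binding motif of SP and KLF factors.
Fgf2, chr3:37348403-37348652, + strand: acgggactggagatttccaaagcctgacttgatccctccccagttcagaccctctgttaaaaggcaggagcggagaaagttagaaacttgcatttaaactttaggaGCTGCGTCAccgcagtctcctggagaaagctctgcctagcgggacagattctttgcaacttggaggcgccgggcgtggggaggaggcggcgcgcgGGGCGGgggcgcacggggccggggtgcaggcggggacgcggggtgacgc

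In the 250 bases before all starts, both strands read, TGACNNNGC was found in 10.2% of 32851 windows and GGGCGG in 32.7%. Among the 9 windows of these genes, TGACNNNGC was in 2 (Fgf2 and the first Fgfr3 start) and GGGCGG in 5 (Fgf2, Fgf10, Fgf18 and both Fgfr3 starts). The AP-1 motif TGACTCA (4.46% of all windows), the related CRE motif TGACGTCA (1.55%) and TATAAA (12.4%) were in none of the 9. A match is a description of letters and not evidence of binding. Neither the Fgf10 start nor the Fgfr2 start was overlapped by a peak of any strength in any of the 4 lists. At Fgfr1, whose gene product is the main FGF receptor of mesenchymal cells, the lower end of the span held a strong peak in every library, at rank 5268 in the knockout (fold 8.06), 10842 in control (fold 7.78), 10440 in rotenone (fold 6.75) and 7487 in vehicle (fold 9.49). For Fgfr1 and Fgf1, which lack a start window, 250 bp each side of both span ends was searched. The higher end of Fgfr1 and the lower end of Fgf1 had no peak in any library. The higher end of Fgf1 had a peak in vehicle alone (fold 2.71, rank 192005). No share over all genes is given for windows of this kind. Both Fgfr3 starts had weak peaks or none, with the best rank of any library at 61573, in vehicle.

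**Figure D1:**
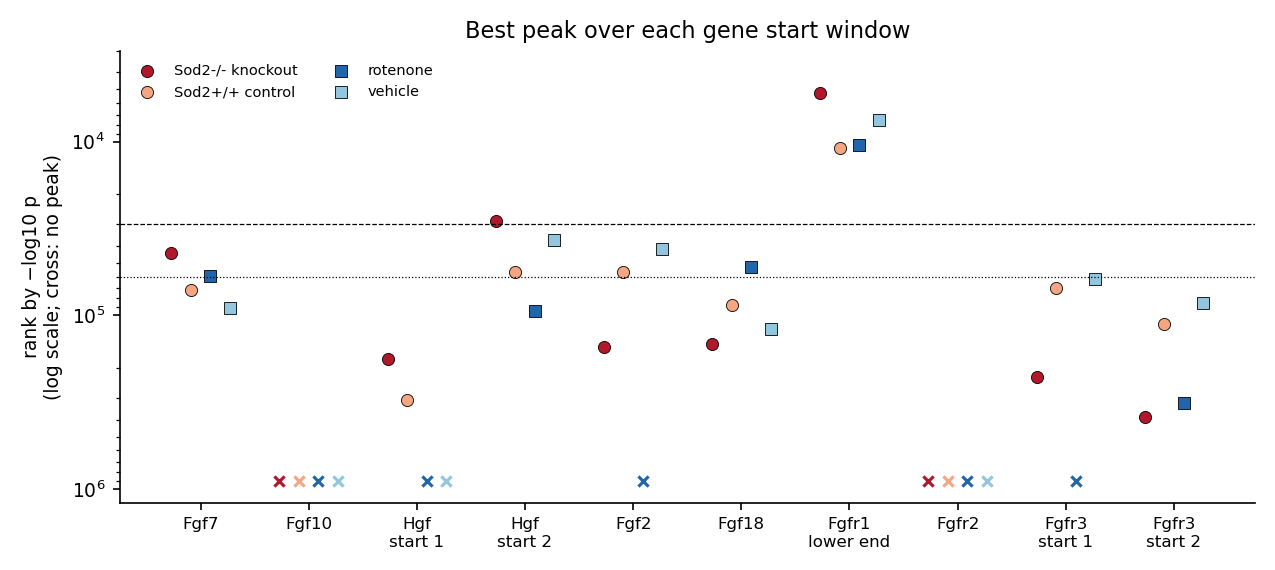
Rank (log scale, strongest at top) of the best peak over each gene start window in the 4 libraries, with a cross where no peak overlapped it and lines at ranks 30000 (dashed) and 60000 (dotted). For Fgfr1 the window is 250 bp each side of the lower end of the span. The higher end of Fgfr1 and both ends of Fgf1 are not drawn. The Fgfr1 points lie between ranks 5268 and 10842, and among the other windows the knockout point of the second Hgf start (28670) is the one above the dashed line.

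Over the whole windows, gene starts included, the strong peaks of the 4 libraries merged into 57 regions, 31 at the ligand genes and 26 at the receptor genes. Of these, 18 lay inside the gene they were counted with and 13 within 1000 bp of an end of another gene, since the windows hold neighbours such as Nsd3 beside Fgfr1 and Slbp and Tacc3 beside Fgfr3. Position alone does not say which gene a region serves, and exons, introns and UTRs were not told apart. Strong in all 4 libraries were 30 of the 57 regions (52.6%), beside 46.1% of 42457 merged regions over the genome. The number of strong peaks was 41 in the knockout, 40 in control, 47 in rotenone and 41 in vehicle. Over all coding genes the median was 4 strong peaks per gene and library, and over these 9 genes it was 5 in the knockout, 4 in control, 5 in rotenone and 4 in vehicle. Peaks of any strength ran from 26 at Fgf7 and at Hgf in vehicle to 84 at Fgfr3 in the knockout. Their median over the 9 genes was 65 in the knockout, 51 in control, 38 in rotenone and 39 in vehicle. Over all coding genes the median was 67, 50, 42 and 41 in the same order. The outermost strong peak inside the window lay 93907 bp from Fgf2 in the knockout (fold 6.33), 93895 bp in control (fold 7.80), 93900 bp in rotenone (fold 8.78), and 95253 bp from Fgf7 in vehicle (fold 6.38). The nearest left outside lay beyond Fgf7, at 101691 bp in the knockout (fold 5.99), 101693 bp in control (fold 7.03), 101706 bp in rotenone (fold 6.46) and 101700 bp in vehicle (fold 5.96).

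**Figure D2:**
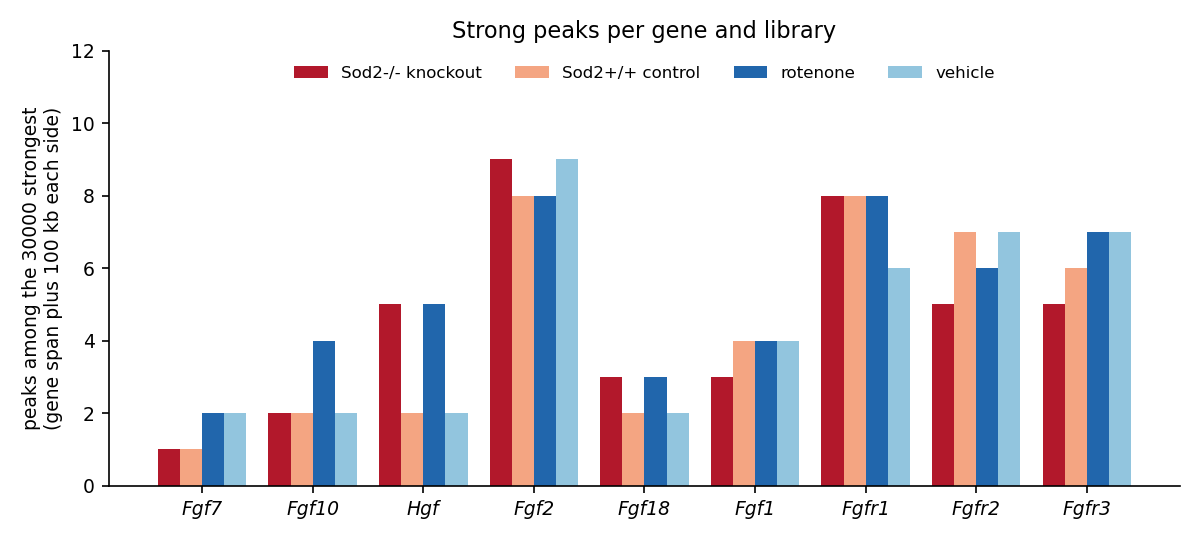
Number of strong peaks (bars, from 0) inside the span or within 100 kb of each of the 9 genes, for the 4 libraries with 1 library each. Hgf stands at 5 in the knockout, 2 in control, 5 in rotenone and 2 in vehicle, and Fgf10 at 4 in rotenone and 2 in each of the other libraries.

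The ligand genes that act on epithelium are Fgf7, Fgf10 and Hgf, with 3, 4 and 7 regions. Fgf7, on chromosome 2 at 126034658-126091185, had 3, and none lay inside the gene. The one strong in all 4 libraries, at 126151889-126152479, lies at the adjoining ends of Dtwd1 and Fam227b. A region 58498 bp upstream, at 125976029-125976290 inside Galk2, was strong in rotenone (fold 5.03, rank 24747). It was weaker in the other lists, at rank 43652 in the knockout, 61618 in control and 64505 in vehicle. Conversely, a region 95253 bp upstream was strong in vehicle (rank 22533) and stood at rank 35581 in the knockout, 30161 in control and 53995 in rotenone.

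Fgf10, on chromosome 13 at 118714699-118792573, has no other coding gene within 100000 bp. Its region 19316 bp upstream, at 118695174-118695591, was strong throughout, at rank 11614 in the knockout, 11915 in control, 6945 in rotenone and 13524 in vehicle. So was a region 58379 bp downstream, at rank 24820 in the knockout, 13542 in control, 16720 in rotenone and 7721 in vehicle. The 2 regions inside the gene were both strong in rotenone alone. At 118736681-118736887 the fold was 4.06 in the knockout (rank 31499), 3.51 in control (rank 66669), 5.79 in rotenone (rank 16785) and 2.94 in vehicle (rank 142277). The other, at 118779292-118779362, is 71 bp wide and stood at rank 109179 in the knockout, 35399 in control, 28798 in rotenone and 57816 in vehicle.

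Hgf, on chromosome 5 at 16553495-16619439, also lies alone in its window. Of its 7 regions, 5 were strong in the knockout, 2 in control, 5 in rotenone and 2 in vehicle. Over the genome, 22.8% of strong knockout peaks and 24.4% of strong rotenone peaks overlapped none of the partner's 30000 strongest. Apart from the regions strong in every library, only the one 46360 bp upstream was strong in both the knockout and rotenone. The pair strong in every library were 16597969-16598323 inside the gene and 16702686-16703078, 83443 bp downstream. The downstream one was the strongest of the locus, with folds of 11.44 in the knockout, 9.63 in control, 9.30 in rotenone and 11.95 in vehicle. A region 46360 bp upstream, at 16506959-16507311, was strong in the knockout (fold 5.14, rank 18291) and in rotenone (fold 4.94, rank 25650). Its ranks were 36763 in control (fold 4.85) and 57993 in vehicle (fold 4.07), so both partner libraries kept a peak there within their 60000 strongest. Downstream, from 28401 bp off the gene, control and vehicle each had 1 broad peak (559 and 527 bp), while narrower peaks at this place were called strong at 16648135-16648309 in the knockout and at 16647781-16647899 in rotenone. Peak width thus moved with the count at this place, and its part in the result was not tested. The strong peak over the second start was the other region found strong in the knockout, and one 83451 bp upstream, at 16469984-16470104, was strong in rotenone.

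**Figure D3:**
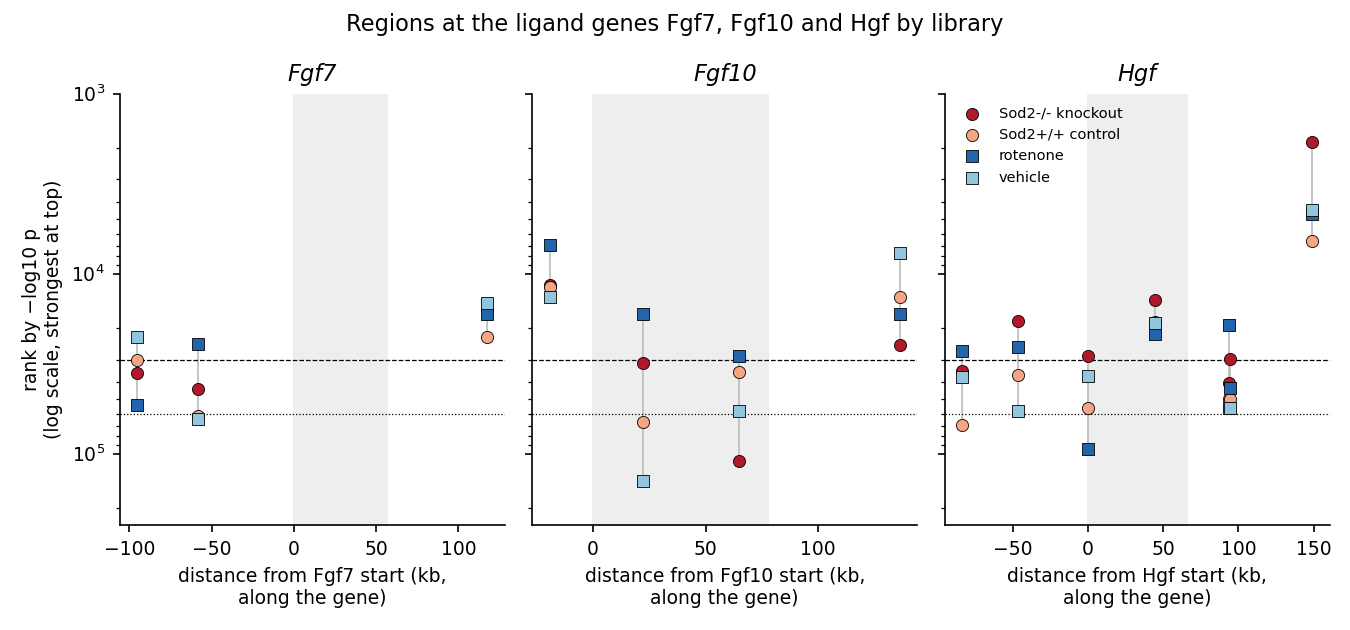
Rank (log scale, strongest at top) of each region at Fgf7, Fgf10 and Hgf in the 4 libraries, against distance from the gene start in kb along the gene, with the gene shaded, ranks 30000 (dashed) and 60000 (dotted) marked, and a grey line joining the libraries of a region. At Hgf, 5 regions in the knockout and 5 in rotenone lie above the dashed line, against 2 in control and 2 in vehicle. Apart from the regions strong in every library, the knockout and rotenone share only the one 46360 bp upstream.

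Fgf2 was the ligand gene with most strong regions, 10, of which 8 were strong in all 4 libraries and 5 lay inside the gene (chromosome 3, 37348477-37410106). Its strongest was the highest ranked peak of the whole set in every library. This region, at 37481311-37481609 inside the neighbouring gene Spata5 and 71354 bp downstream of Fgf2, had a fold of 25.5 (rank 164) in the knockout, 16.4 (rank 1124) in control, 28.1 (rank 109) in rotenone and 20.3 (rank 625) in vehicle. Inside Fgf2, the regions at 37360534-37361155, 37370343-37371018 and 37401995-37402565 were strong in every library, with folds between 4.81 and 9.10. The region at 37378540-37378727 was strong in the knockout (rank 22004) and stood at rank 51897 in control, 32521 in rotenone and 32896 in vehicle. That at 37399021-37399354 was strong in vehicle (rank 29568) and stood at rank 87483 in the knockout, 39115 in control and 49137 in rotenone. A region at the adjoining ends of Nudt6 and Spata5, 37418971-37420562, was strong throughout. Nudt6 is known as the antisense partner of Fgf2.

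Fgf18, on chromosome 11 at 33116970-33147400, had 3 regions, all upstream. The nearest, 1177 bp from the start at 33148477-33148678, was strong in the knockout (fold 4.53, rank 25890) and in rotenone (fold 5.54, rank 20206). Control (fold 4.83, rank 33794) and vehicle (fold 4.97, rank 37361) had it outside the strong list. The peak was 202 bp wide in the knockout, 685 bp in control, 168 bp in rotenone and 685 bp in vehicle, so width moved with the call here too. The other 2 regions, 1 of them over the Npm1 gene end, were strong in all 4 libraries.

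Fgf1, which encodes the FGF that binds all receptor types, lies on chromosome 18 at 38838672-38929470, overlapping Arhgap26. All but 1 of its 4 regions were strong throughout, the strongest 63611 bp beyond the higher end of the span with folds of 12.6 in the knockout, 13.8 in control, 15.7 in rotenone and 16.2 in vehicle. The region inside the gene, at 38855652-38855943, was strong in control (rank 22592), rotenone (rank 21468) and vehicle (rank 15893), and stood at rank 50561 in the knockout.

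Fgfr2, whose epithelial form receives FGF7 and FGF10, had the fewest shared regions among the receptor genes. Its span on chromosome 7 is 130162451-130266808, and no other coding gene lies within 100000 bp. Of its 11 regions 2 were strong in all 4 libraries. Inside the gene lay 6, and of these 3 were strong in the knockout, 6 in control, 3 in rotenone and 4 in vehicle. The region at 130167336-130167655 had a fold of 4.24 (rank 29599) in the knockout, 8.79 (rank 9020) in control, 5.55 (rank 19602) in rotenone and 8.68 (rank 10487) in vehicle. A region at 130204743-130205064 stood at rank 33225 in the knockout, 18840 in control, 23273 in rotenone and 13051 in vehicle. Both thus ranked lower in the knockout and rotenone lists than in their partner lists. The opposite order was seen at 130215370-130216134, at rank 10286 in the knockout, 28156 in control, 14765 in rotenone and 18052 in vehicle. That peak was 239 bp wide in the knockout, 728 bp in control, 268 bp in rotenone and 723 bp in vehicle. At 520 bp inside the gene from its start, 130266151-130266424 stood at rank 29648 in the knockout, 23933 in control, 39191 in rotenone and 16797 in vehicle.

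Outside Fgfr2, 65907 bp upstream, the region at 130332532-130332899 was strong in control (fold 6.68, rank 18256) and vehicle (fold 7.55, rank 15823) and in neither of the others, with folds of 3.30 in the knockout (rank 52929) and 3.30 in rotenone (rank 77672). It was the single region of the 57 with this pattern, which 7.52% of all merged regions had. The reverse pattern, strong in the knockout and in rotenone only, was found at 3 of the 57, beside 6.18% of all merged regions. These were the Hgf region 46360 bp upstream, the Fgf18 region 1177 bp upstream and an Fgfr2 region 18599 bp downstream, at 130143438-130144266, with ranks of 28415 in the knockout, 58151 in control, 25947 in rotenone and 68771 in vehicle.

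**Figure D4:**
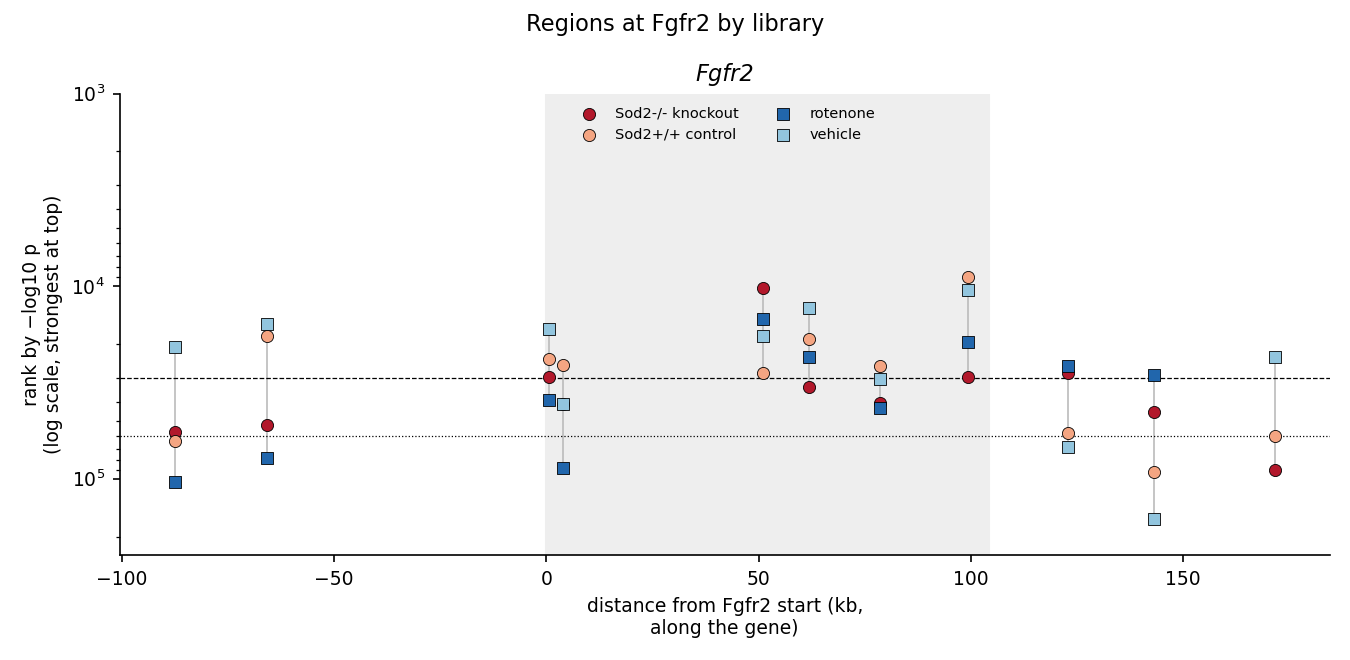
Rank (log scale, strongest at top) of the 11 regions at Fgfr2 in the 4 libraries, against distance from the gene start in kb along the gene, with the gene shaded and ranks 30000 (dashed) and 60000 (dotted) marked. At the region 67256 bp downstream rotenone had no peak and so has no point, and 65907 bp upstream both knockout and rotenone points lie below the dashed line and both partner points above it.

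Fgfr1 and Fgfr3 were steadier, with 5 of 8 and 5 of 7 regions strong in all 4 libraries. At Fgfr1 (chromosome 8, 25518759-25575718) a region inside the gene, 25536505-25537707, stood at rank 7230 in the knockout, 8636 in control, 6563 in rotenone and 15174 in vehicle. One region, 53 bp wide and inside Nsd3, was strong in rotenone alone (rank 22698). No strong region lay inside Fgfr3 (chromosome 5, 33721724-33737068), the gene of a receptor best known for limiting bone growth. Of the 7 regions of its window, 5 were at ends of other genes, among them 33657419-33658598 between Tmem129 and Tacc3, with ranks of 3842 in the knockout, 7100 in control, 1647 in rotenone and 9019 in vehicle. Its region in Slbp at 33640731-33640900 was strong in vehicle (rank 19638) and stood at rank 100410 in the knockout, 34166 in control and 41556 in rotenone.

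A strong peak of the knockout or rotenone was called gained when it overlapped none of the partner's 60000 strongest peaks. A strong peak of the partner was called lost when it overlapped none of the 60000 strongest of the knockout or rotenone. In the knockout against control, 0 of 41 strong peaks at the 9 genes were gained, beside 5.33% of all strong knockout peaks, and 0 of 40 were lost, beside 6.76% of all strong control peaks. Counts of 0 allow a share of up to 7.32% and 7.50% by counting error, which includes both background shares, so this does not set the 9 genes apart. Of all coding genes, 35.4% had at least 1 gained or lost region in this comparison, and 0 of these 9 did. None of the 9 genes reached 5 such regions, as 0.123% of coding genes did. Strong peaks that overlapped no partner peak of any strength also numbered 0 in the knockout and 0 in control, beside 0.243% of all strong knockout peaks and 0.343% of all strong control peaks. With strong lists of 60000 and partner lists of 120000, 16 of 93 were gained and 11 of 74 lost in the knockout, beside 12.1% and 14.0% of all peaks, so the absence of calls depended on list length. Against the partner's 30000 strongest peaks, 6 of 41 were strong in the knockout only (22.8% of all), 3 of them at Hgf, and 7 of 40 in control only (23.6% of all), 4 of them at Fgfr2.

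In rotenone against vehicle, 4 of 47 strong peaks were gained (8.51%, 95% Wilson interval 3.36-19.9), beside 6.81% of all strong rotenone peaks. In the other direction 3 of 41 were lost (7.32%, interval 2.52-19.4), beside 8.04% of all strong vehicle peaks. Both intervals include the background share. Of the 9 genes, 3 had a gained or lost region, beside 41.8% of coding genes. The gained regions were those described inside Fgf10, upstream of Fgf7 and 18599 bp downstream of Fgfr2, and one 38856 bp downstream of Fgfr2 at 130123533-130123657, with a fold of 4.70 in rotenone (rank 28867) and 2.84 in vehicle (rank 162359). In the knockout this one stood at rank 45105 and in control at rank 92582.

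All 3 lost regions lay around Fgfr2 and outside the gene. Beside the one 65907 bp upstream, they were 130354321-130354413, 87559 bp upstream, with a fold of 3.08 in rotenone and 6.56 in vehicle, and 130095108-130095282, 67256 bp downstream, with no peak in rotenone and a fold of 6.15 in vehicle. These last 2 were also absent from the 60000 strongest control peaks, where their ranks were 63800 and 60097. They made up the 2 regions gained in vehicle over control (2 of 41 strong vehicle peaks, 4.88%, interval 1.35-16.1, beside 1.03% of all). This interval does not include the background share. No region was lost in vehicle over control, 0 of 40, beside 0.847% of all strong control peaks. Of coding genes, 7.87% had a region called in that comparison. Control had a peak at both places, with folds of 3.64 and 3.68, so these calls rest on the limit of 60000. Fgfr2, singled out after its values were seen, had 5 gained or lost regions in rotenone, a number reached by 0.183% of coding genes, which differ in length and in number of peaks. Overlap with no partner peak of any strength was seen for 0 of 47 strong rotenone peaks, beside 0.773% of all, and for 1 of 41 strong vehicle peaks, beside 0.943%. Against the partner's 30000 strongest, 11 of 47 were strong in rotenone only (24.4% of all) and 8 of 41 in vehicle only (24.8% of all). With strong lists of 15000 and partner lists of 30000, 0 of 23 strong rotenone peaks at the 9 genes were gained, beside 5.52% of all, and 0 of 22 strong vehicle peaks were lost, beside 6.09% of all. With lists of 60000, 15 of 90 were gained, 7 of them at Fgfr3, and 14 of 81 were lost, beside 15.6% and 16.5% of all peaks.

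**Figure D5:**
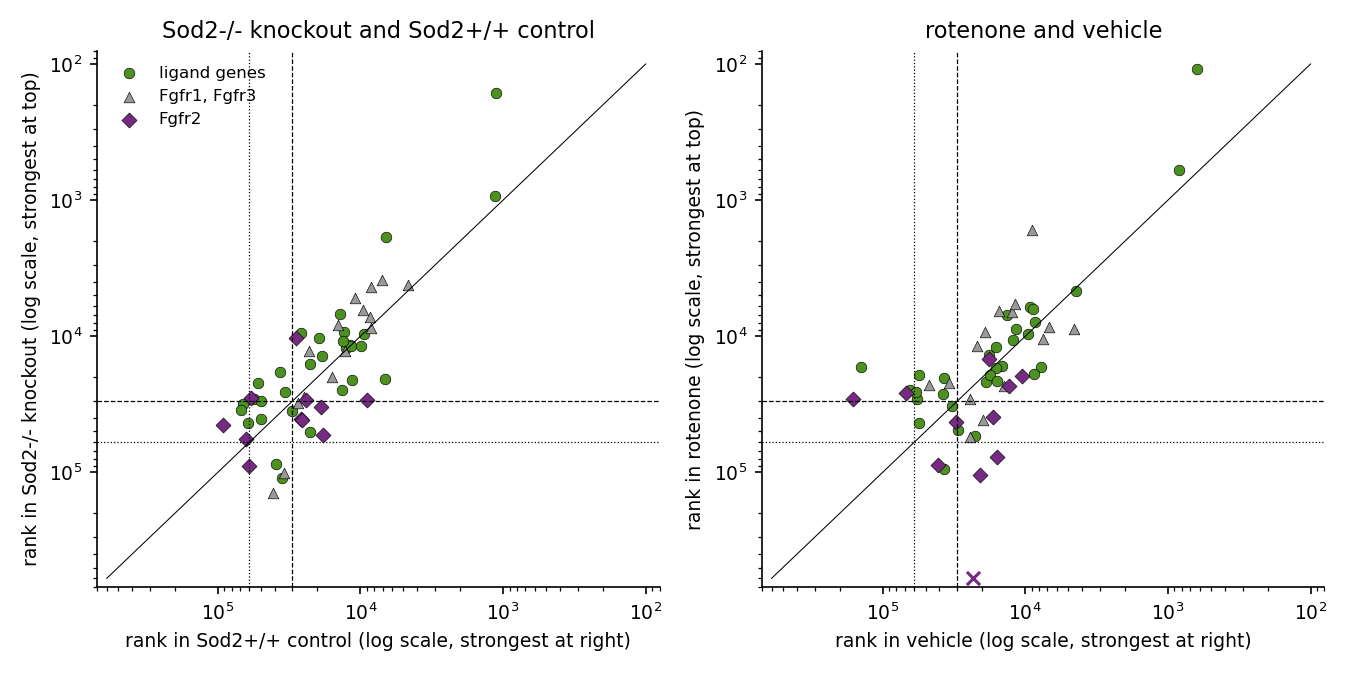
Rank of each of the 57 regions in the knockout against control (left) and in rotenone against vehicle (right), both axes on log scales with the strongest at top and right. Colours give ligand genes, Fgfr2, and Fgfr1 with Fgfr3, dashed lines mark rank 30000, dotted lines rank 60000, the thin diagonal equal ranks, and a cross at the lower edge a region with no peak in rotenone. Left, no region strong in one library falls beyond rank 60000 in the other, while right, 7 do, 5 of them at Fgfr2.

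Other genes of the pathway were counted the same way, within 100000 bp of each gene, and the genome-wide shares above apply to them too (5.33% gained and 6.76% lost in the knockout, 6.81% and 8.04% in rotenone). Among 17 other FGF ligand genes, 4 of 61 strong knockout peaks were gained and 2 of 58 strong control peaks lost. In rotenone 4 of 63 were gained and 4 of 61 vehicle peaks lost. Fgf6 and Fgf23, which are neighbours, each lost 2 regions in rotenone, the stronger one shared by both at chromosome 6, 127034947-127035064 (fold 9.81 in vehicle). The 7 receptors and coreceptors had 3 of 43 knockout peaks gained and 5 of 48 control peaks lost. Klb, the coreceptor of endocrine FGFs, lost 2, and Kl, its relative, gained 2 and lost 1. In rotenone 2 of 50 were gained and 1 of 46 vehicle peaks lost.

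At the 13 adaptor and kinase genes, 8 of 95 knockout peaks were gained and 7 of 92 control peaks lost, and 10 of 96 rotenone peaks were gained and 3 of 84 vehicle peaks lost. Map2k2, a kinase of the ERK cascade, gained 4 in the knockout and 3 in rotenone, the best ranked knockout one 54090 bp from the gene. Its window held 13 strong peaks in the knockout, 7 in control, 13 in rotenone and 8 in vehicle. Gab1, a docking protein of FGF and HGF receptors, lost 3 in the knockout, the best ranked inside the gene at chromosome 8, 80810834-80811392 (fold 6.48 in control), and gained 1 in rotenone. Its window held 10 strong peaks in the knockout, 16 in control, 10 in rotenone and 15 in vehicle. Braf lost 2 in the knockout.

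Feedback inhibitors and targets, among them the Sprouty genes and Dusp6, were 12 genes. In the knockout 1 of 45 peaks was gained, at Spred2, and 1 of 43 control peaks lost, at Etv5. In rotenone 2 of 50 were gained, 1 of them at Il17rd, and 1 of 42 vehicle peaks was lost. At the 7 genes that activate or inhibit HGF, 1 of 42 knockout peaks was gained and 5 of 42 control peaks were lost, 2 of the losses at St14, a membrane protease that activates HGF, and 1 each at Plau and Plat. In rotenone a region was gained at Spint2, an inhibitor of proteases that activate HGF, and 0 of 37 vehicle peaks were lost.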

How the data were processed

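ATAC-seq was measured in 4 libraries, 1 per group. Per the submitters' processing notes, Bowtie2, bedtools, MACS2 and HOMER were used with mm10. Versions, settings, read filters and any Tn5 shift were not given in the sources used here. Each deposited list is one library's peaks without a header, read here in MACS2 broad peak order. The fold enrichment is a ratio over local background by the authors, the −log10 p and −log10 q are the authors' values, and the deposited score was not used. All are used within a list to rank, filter and describe its peaks. Starts were converted to 1-based positions.

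Gene spans came from the RefSeq table of GRCm38.p6 (mm10), in which all 9 genes matched. Peaks were ranked by −log10 p, with ties broken by fold, the first 30000 were strong, and partner lists held 60000. Overlap meant 1 bp. Strong peaks that overlapped were merged into regions, described by the best ranked overlapping peak of each library. The genes, lists and definitions were chosen with earlier results of these data known. Pathway genes named are up to 3 per list and comparison with the largest gained minus lost. Intervals are 95% Wilson intervals, limits for a count of 0 use 3 counts, and both cover counting error only. Some items are not reported here. Alternatives were list length, ranking, overlap, distance and width. Scripts ran in Python 3.11.15 with pandas 2.3.3, numpy 2.4.6 and scipy 1.17.1, and figures in matplotlib 3.10.9.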

Additional observations from a re-analysis of the deposited data

How the results depend on the processing

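No paired analysis was possible because each group has 1 library and the values come from no test. With strong lists of 15000 and partner lists of 30000, rotenone gained 0 of 23 and lost 0 of 22 (5.52% and 6.09% of all strong peaks). Vehicle and control differed at 0 of 46, both directions counted together, beside 0.797% of all. With the reported lists this was 2 of 81, beside 0.938%. With lists of 60000 and 120000, the knockout gained 16 of 93 (12.1% of all) and lost 11 of 74 (14.0%). Rotenone gained 15 of 90 (15.6%) and lost 14 of 81 (16.5%), and vehicle and control differed at 9 of 155 (3.76%). When 50% of a peak had to be covered, the knockout lost 3 of 40, beside 13.2% of all strong control peaks. When the whole partner list was searched, rotenone gained 0 of 47 (0.773% of all) and lost 1 of 41 (0.943%). Vehicle and control then differed at 0 of 81 (0.0983%). Within 50000 bp, rotenone lost 0 of 24, beside 8.04% of all, and vehicle and control differed at 0 of 50, beside 0.938%. With strong peaks of at least 100 bp, vehicle and control differed at 1 of 80, beside 0.560% of all. Chosen after seeing the data, a partner list of 30000 gave 6 of 41 gained (22.8% of all) and 7 of 40 lost (23.6%) in the knockout. In rotenone it gave 11 of 47 gained (24.4%) and 8 of 41 lost (24.8%). Between vehicle and control it gave 8 of 81 (14.1%). A partner list of 340240, the length of the shortest list, gave 0 of 47 gained (0.773% of all) and 1 of 41 lost (0.953%) in rotenone. Between vehicle and control it gave 0 of 81 (0.1%). Ranking by fold moved none of these counts by over 1.5 times. With the strong lists held at 30000, a longer partner list could only lower these counts or leave them the same, by construction. With both lists lengthened to 60000 and 120000, the counts were higher, and so were the shares over all strong peaks.

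The number of strong peaks in the knockout was 25 with lists of 15000, 93 with lists of 60000 and 115 at a −log10 q of at least 5. In control these were 24, 74 and 126, in rotenone 23, 90 and 91, and in vehicle 22, 81 and 117. Within 50000 bp it was 26 in control, 31 in rotenone and 24 in vehicle. Depth is unknown, so weak peaks cannot be told from missing ones. Of 65 alternative values, 27 stayed within 1.5 times of the reported one and 38 did not. A shorter or longer strong list and a shorter distance move the number of strong peaks by construction, so this tally does not measure stability.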
